A study of Mus musculus with 6 samples.

Results

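Genes of blood and lymphatic vessel growth were followed in the mouse pancreas: the VEGF family ligands Vegfa, Vegfb, Vegfc and Pgf, the angiopoietins Angpt1 and Angpt2, and Flt4, the receptor for VEGF-C. They were chosen by symbol, and all 7 of 7 were found among the 37761 genes of the deposited table. RNA sequencing covered 6 wild-type mouse libraries, with no strain or added agent given in the labels. In the first group were 3 libraries of the whole pancreas of embryos at e15.5. The second group held 3 libraries of islets, the endocrine clusters, freed with collagenase from the pancreas of mice aged 12 weeks. The groups differ in age, in tissue and in isolation at once, and these cannot be told apart. Whether the libraries came from separate or pooled animals is not in the labels, so the p-values rest on a spread between libraries that may be only technical.

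VEGF ligands are secreted dimers that drive the growth, survival and permeability of vessels through receptor tyrosine kinases on endothelial cells. VEGF-A acts mainly through Kdr and also binds Flt1, which holds ligand with little signalling of its own, VEGF-B and placental growth factor (Pgf) bind Flt1, and VEGF-C and VEGF-D bind Flt4. Angiopoietin 1, made largely by cells around vessels, activates the endothelial receptor Tek and steadies the vessel wall, whereas angiopoietin 2, made by endothelial cells, can block or weakly activate the same receptor. Adult islets are threaded by a dense net of fenestrated capillaries, and beta cells are known as a source of VEGF-A there.

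The libraries held between 35059950 and 47346870 reads in genes, and 1 normalized count stood for 0.910 to 1.22 reads. Reads that fell in no gene or could not be placed took 40.7 to 54.6%. The labelled tissues carried their markers. Summed over 9 endocrine genes, islet hormones among them, the level was 36283 to 68865 normalized counts at e15.5 and 5263140 to 5916000 in the islet libraries, and all 9 rose. Summed over 9 mesenchyme genes it was 156241 to 181055 and 877 to 2119, with all 8 genes tested lower and the ninth, Nkx2-5, at 0 reads in the islets. Acinar genes were present in both groups, at 130816 to 182024 and 290023 to 740917, highest in the second islet library (6 of 9 rose, 2 fell and 1 was not called). Erythroid genes (7 of 7 lower, with Hbb-y and Hba-x at 0 reads in the islets) and macrophage genes (5 of 7 lower, 1 higher, 1 not called) were also measured. In bulk samples, fewer cells of a type and less RNA per cell cannot be told apart.

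The starting points of 3 VEGF ligand genes are shown: Vegfa and Vegfb, which moved one way, and Vegfc, which moved the other. The RefSeq promoter table (GRCm38.p6) held 7 windows for 5 of the 7 genes (not Angpt1 and Angpt2), and of 2 windows for Vegfa the one at the 5′ end of the gene is shown. Each line gives the 250 bases before the start of transcription, 5′ to 3′ on the strand of the gene. Capitals mark 2 short motifs searched on both strands: the core bound by hypoxia-inducible factors (HIF), ACGTG or GCGTG, and the GC box GGGCGG. Neighbouring matches can touch or overlap.
Vegfa, chr17:46032378-46032627, minus strand: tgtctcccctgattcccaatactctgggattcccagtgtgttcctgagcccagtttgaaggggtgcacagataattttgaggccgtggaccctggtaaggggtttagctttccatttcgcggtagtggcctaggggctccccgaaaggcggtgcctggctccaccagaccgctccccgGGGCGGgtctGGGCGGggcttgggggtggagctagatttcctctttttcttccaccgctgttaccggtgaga
Vegfb, chr19:6987652-6987901, minus strand: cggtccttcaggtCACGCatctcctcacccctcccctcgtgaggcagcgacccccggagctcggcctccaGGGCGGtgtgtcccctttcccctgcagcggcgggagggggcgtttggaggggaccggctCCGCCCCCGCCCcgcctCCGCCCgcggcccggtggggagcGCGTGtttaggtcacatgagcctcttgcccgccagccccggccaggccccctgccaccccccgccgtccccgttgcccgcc
Vegfc, chr8:54077282-54077531, plus strand: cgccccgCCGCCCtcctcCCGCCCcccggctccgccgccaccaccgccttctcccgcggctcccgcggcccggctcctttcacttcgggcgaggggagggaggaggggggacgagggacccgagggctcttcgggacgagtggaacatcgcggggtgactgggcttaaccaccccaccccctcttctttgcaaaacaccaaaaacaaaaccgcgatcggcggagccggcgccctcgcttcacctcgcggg
The Vegfa window shown held 2 GC boxes and 0 HIF cores, that of Vegfb held 4 and 2, and that of Vegfc held 2 and 0. The counts were the same for Vegfa and Vegfc. The other Vegfa window, which lies within the gene (chr17:46025164-46025413), held 1 GC box and 2 HIF cores. Whether it overlaps exons of Vegfa was not examined, so these letters need not be promoter sequence. Only 250 bases were searched, so a count of 0 says nothing of sites further from a start. Among all 32851 windows of this length, 32.7% held a GC box and 38.6% a HIF core. The letters are a description of these windows and show no binding, and a link to the direction of change was not tested.

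Of the 7 genes, 3 were higher in the adult islets (Vegfa, Vegfb and Angpt2), 2 were lower (Vegfc and Angpt1) and 2 were not called (Pgf and Flt4), with limma-trend and a threshold of 0.05 on the adjusted p. Across the 21653 genes tested, 72.8% were called, 36.2% higher and 36.6% lower, so that 5 of 7 is near the background of this comparison. On reads recovered from the values, edgeR and DESeq2 also called 5 of the 7, beside 74.2% and 71.2% of all genes tested. All 7 passed the filter on low values, and their median log2 fold change was 0.14, beside −0.03 for all genes tested. For 5 of the 7 the groups were apart in every library, as they were for 77.1% of all genes tested. Below, values are the authors' normalized counts, given in the order of library 1, 2 and 3, and then as mean ± SD (n = 3 in each group). A log2 fold change is the islet minus the embryonic mean of log2(value + 1) and has its standard error (SE) beside it, and adjusted p-values are from limma-trend with Benjamini-Hochberg adjustment over all genes tested.

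**Figure D1:**
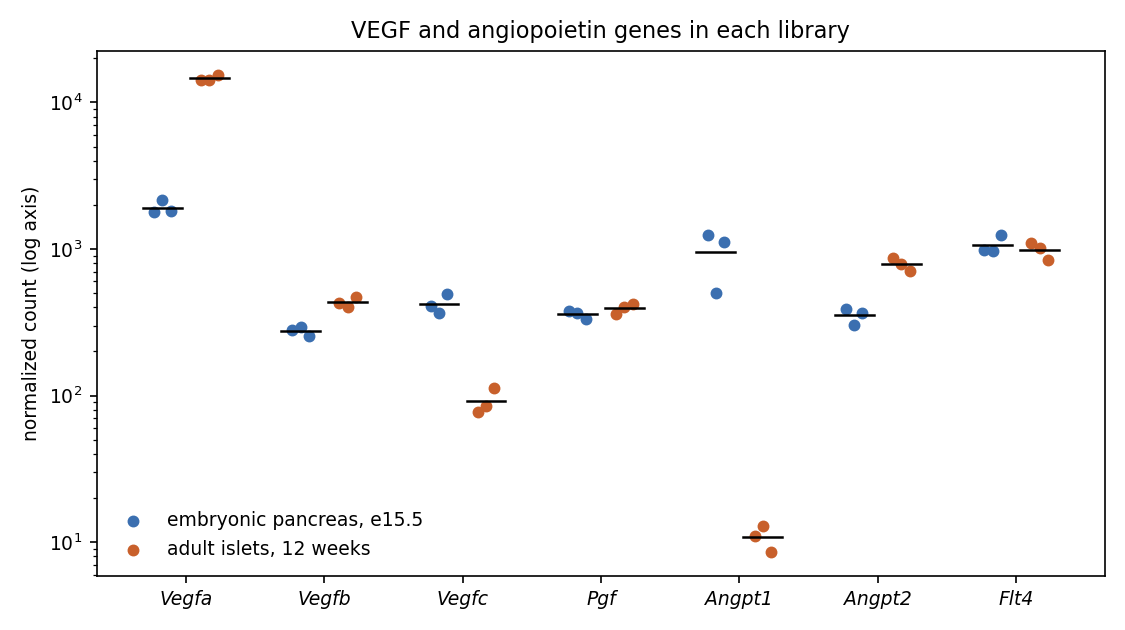
Normalized counts (log axis) of the 7 genes in each library, 3 of embryonic pancreas in blue and 3 of adult islets in orange, with black bars for the group means. Vegfa sits between 14165 and 15476 in the islets, above every embryonic library, while Angpt1 falls to between 8.58 and 12.9, and the 2 groups overlap for Pgf and Flt4.

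Vegfa, the principal ligand of blood vessel growth, was the gene of the 7 with the highest level per kb of exon in both groups. It lies on the minus strand of chromosome 17 (chr17:46016993-46032369, GRCm38, which is mm10, GENCODE M21) and shares no exon with another annotated gene. Normalized counts were 1775, 2147 and 1824 in embryonic libraries, against 14248, 14165 and 15476 in islet libraries. Every islet library was above every embryonic one, with means of 1916 ± 202 and 14629 ± 734. The mean was 7.64-fold higher in the islets (log2 fold change 2.94 with SE 0.10, adjusted p = 2.9e-08 by limma-trend). A larger absolute change was seen in 15.8% of the genes tested. In the second islet library, where acinar genes were highest, Vegfa was at 14165, the lowest of the 3 islet values and within 1 SD of their mean. Endocrine genes were higher in the islets too, as given above, and the part of the mix of cells in the rise of Vegfa was not tested. By level per kb of exon, Vegfa ranked 3054 of 18806 protein-coding genes at e15.5 and 291 in the islets.

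Vegfb, a ligand of Flt1 linked to fatty acid handling by endothelium, also rose, by less. Its gene is on the minus strand of chromosome 19 (chr19:6982473-6987651). Normalized counts were 281, 294 and 253 in embryonic libraries, against 428, 404 and 472 in islet libraries, which did not overlap. The means of 276 ± 20.8 and 435 ± 34.7 differed 1.57-fold (log2 fold change 0.65 with SE 0.12, adjusted p = 0.0013 by limma-trend). Pgf, placental growth factor, the other ligand specific to Flt1, is on the minus strand of chromosome 12 (chr12:85166635-85177790). It held 378, 364 and 330 normalized counts at e15.5, against 362, 405 and 420 in the islets. The first islet library lay within the embryonic range, so the groups overlapped, and the difference did not pass the test (means 358 ± 24.7 and 396 ± 29.6, log2 fold change 0.14 with SE 0.12 and a 95% interval of −0.13 to 0.42, adjusted p = 0.30 by limma-trend).

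Vegfc, the main ligand of lymphatic vessel growth, was lower in the islets. The gene is on the plus strand of chromosome 8 (chr8:54077606-54187096). Its 3 embryonic libraries held 406, 365 and 491 normalized counts, and the islet libraries 76.9, 85.3 and 113. All islet values were below all embryonic ones, and the means of 421 ± 63.9 and 91.6 ± 18.7 differed 4.59-fold (log2 fold change −2.19 with SE 0.19, adjusted p = 9.3e-06 by limma-trend). Vegfd, the other ligand of Flt4, which was listed here as a pathway gene, fell as well. It went from 245 ± 25.6 to 11.6 ± 3.89 normalized counts (log2 fold change −4.32), with 33 reads in all in the islet libraries.

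The genes that process or present VEGF-C were mostly lower as well. Of 6 such genes, 5 fell and 1 rose, with a median log2 fold change of −5.16 beside −0.03 for all genes tested. Ccbe1, the matrix protein that brings VEGF-C to its protease, fell from 1456 ± 95.8 to 31.3 ± 2.65, and Adamts3, that protease, from 224 ± 59.8 to 3.08 ± 2.98 (log2 fold changes −5.50 and −6.14, the latter on 9 islet reads). Furin, a proprotein convertase of many secreted proteins, rose from 1245 ± 39.3 to 1869 ± 109 (log2 fold change 0.58). The fall of these genes ran beside that of mesenchyme genes, whose summed level is given above, and the part of mesenchyme in it was not tested.

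Set against one another by level per kb of exon within each library, the ligands differed in composition. Vegfa made up 42.4, 46.8 and 42.6% of the summed level of Vegfa, Vegfb, Vegfc, Pgf and Vegfd at e15.5, against 88.6, 88.5 and 88.0% in the islets. The difference of 44.5 percentage points was far larger than the spread of either group (SD 2.47 and 0.313), with p = 0.1 by a two-sided exact permutation test, the smallest that 3 against 3 libraries allows. Such a share does not depend on the scaling between libraries, but it does rest on the annotated exon lengths. Without division by length the difference was 34.5 percentage points. Vegfb went from 17.0 ± 1.08 to 7.0 ± 0.238% and Pgf from 12.1 ± 1.05 to 3.53 ± 0.202%, so both took a smaller share although neither had a lower mean count. Vegfc went from 17.0 ± 3.06 to 0.963 ± 0.145% and Vegfd from 9.98 ± 0.603 to 0.124 ± 0.0342%.

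**Figure D2:**
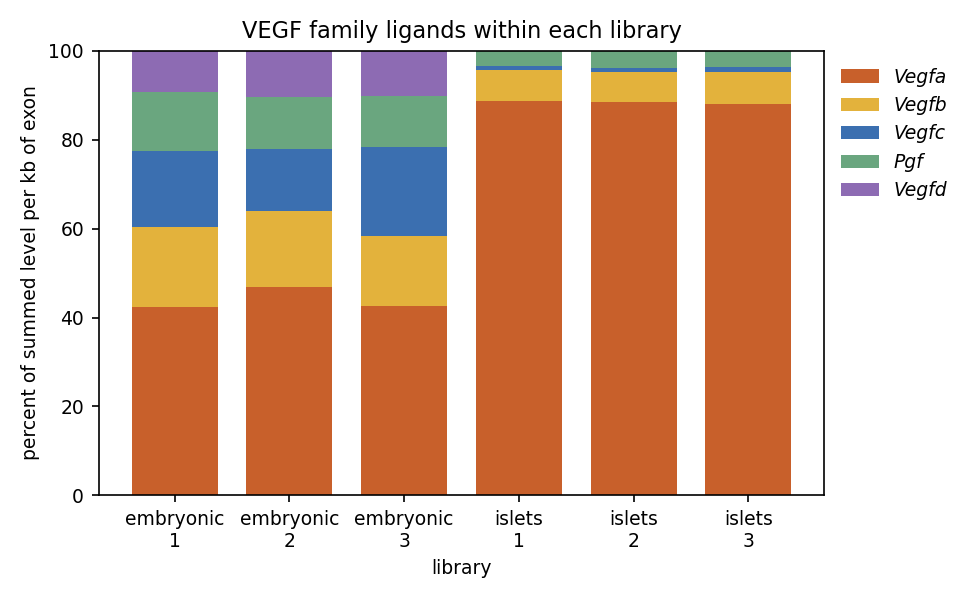
Percent of the summed level per kb of exon (vertical axis) that each of 5 VEGF family ligands took in each of the 6 libraries (horizontal axis). Vegfa fills 42.4 to 46.8% of the embryonic bars and 88.0 to 88.6% of the islet bars, where Vegfc and Vegfd are barely visible.

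The receptors of these ligands moved in both directions. Of 4 VEGF receptors and co-receptors, 1 rose and 3 fell, with a median log2 fold change of −1.34. Flt1 rose from 1231 ± 60.9 to 2778 ± 299 normalized counts while Kdr, the main signalling receptor for VEGF-A, fell from 4365 ± 363 to 2995 ± 345 (log2 fold changes 1.17 and −0.55). Per kb, Flt1 stood at 0.175, 0.200 and 0.192 times Kdr in the embryonic libraries and at 0.629, 0.601 and 0.632 in the islets, a ratio chosen after the values of both genes were seen (3.29-fold higher, two-sided exact permutation p = 0.1). The co-receptors Nrp1 and Nrp2, which also serve axon guidance, fell from 8049 ± 348 to 1107 ± 117 and from 3283 ± 826 to 744 ± 143 (log2 fold changes −2.87 and −2.12).

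Relative to its receptors, Vegfa was higher in every islet library than in any embryonic library. Its level per kb was 0.688, 0.954 and 0.714 of that of Flt1 plus Kdr in the embryonic pancreas, and 5.68, 5.93 and 7.69 times that sum in the islets. This is an 8.21-fold higher ratio (log2 difference 3.04, two-sided exact permutation p = 0.1). Adjusted over the 7 ratios and shares computed within libraries, p stayed at 0.1 for each of them.

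Angpt1, the agonist of Tek, showed the steepest change of the 7 genes. It lies on the minus strand of chromosome 15 (chr15:42424723-42676977). Embryonic libraries held 1239, 500 and 1111 normalized counts and islet libraries 11.0, 12.9 and 8.58, so that even the lowest embryonic value stood far above the islets. The means were 950 ± 395 and 10.8 ± 2.16, 87.8-fold lower in the islets, where 31 reads were counted in all (log2 fold change −6.24 with SE 0.35, adjusted p = 4.9e-07 by limma-trend). A larger absolute change was seen in 1.94% of genes tested. The antisense gene Gm17473 covers 14.2% of its exon length, and the labels do not say that strand was kept, so reads there could come from either gene. Gm17473 was listed with 15 reads in the embryonic libraries and 0 in the islets, and its part in the Angpt1 count was not tested. Without the second embryonic library, which was low for Angpt1, the log2 fold change was −6.65.

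Genes of the cells that surround vessels were lower beside Angpt1. Of 9 pericyte and mural genes, 7 fell, 1 rose and 1 was not called, and their summed level was 16810 to 20653 in the embryonic libraries and 6018 to 6558 in the islets, with none at 0. Acta2, smooth muscle actin, and Des, the filament protein desmin, fell furthest (log2 fold changes −5.68 and −4.04), while Anpep, a surface peptidase, rose slightly (0.25). In the second embryonic library, where Angpt1 was at 500, the summed mural and mesenchyme levels, 16810 and 156241, were the lowest of the 3. The highest embryonic sums were 20653 and 181055, so the sums were lower by a smaller share than Angpt1, at 500 against 1239 and 1111. Single genes went either way in the second embryonic library. Of the mural genes, Cspg4, Abcc9, Acta2, Myh11 and Notch3 were at their lowest embryonic value. Kcnj8, a potassium channel subunit, and Des were at their highest, and Rgs5 and Anpep lay between. Acta2 was at 1109 against 1908 and 1926 in the others, and Kcnj8 at 1825 against 1614 and 1689. Of the mesenchyme genes, the collagen genes, Dcn, Lum and Tcf21 were lowest there, while Wt1, Barx1 and Nkx2-5 were highest. The part of mural and mesenchyme cells in the fall of Angpt1 was not tested.

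Angpt2, the angiopoietin of endothelial cells, moved the opposite way. Its gene lies on the minus strand of chromosome 8 (chr8:18690263-18741562), within the span of Mcph1 on the other strand, with no shared exon. Normalized counts were 389, 304 and 366 at e15.5, against 874, 786 and 705 in the islets. The groups did not overlap, and the mean rose 2.23-fold from 353 ± 44.2 to 789 ± 84.7 (log2 fold change 1.16 with SE 0.13, adjusted p = 5.4e-05 by limma-trend). Mcph1 itself was lower in the islets (log2 fold change −0.78).

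The ratio of the 2 angiopoietins lay on opposite sides of 1 in the tissues. Per kb of exon, Angpt2 was at 0.443, 0.857 and 0.465 of Angpt1 in the embryonic libraries, below it in all 3. In the islet libraries it was at 112, 86.0 and 116 times Angpt1. The log2 ratio differed by 7.53 between the groups, with SDs of 0.53 and 0.24 (two-sided exact permutation p = 0.1). All 5 genes listed as angiopoietin receptors and modulators fell, with a median log2 fold change of −1.59. Tek went from 1440 ± 36.1 to 484 ± 102 and its relative Tie1 from 1317 ± 95.1 to 494 ± 54.9 (log2 fold changes −1.59 and −1.41). Ptprb, the phosphatase that restrains Tek, changed least of the 5, from 1675 ± 361 to 1055 ± 51.1 (log2 fold change −0.64). Angpt4, the third angiopoietin, was at 35.1 ± 0.455 and 5.32 ± 2.92.

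**Figure D3:**
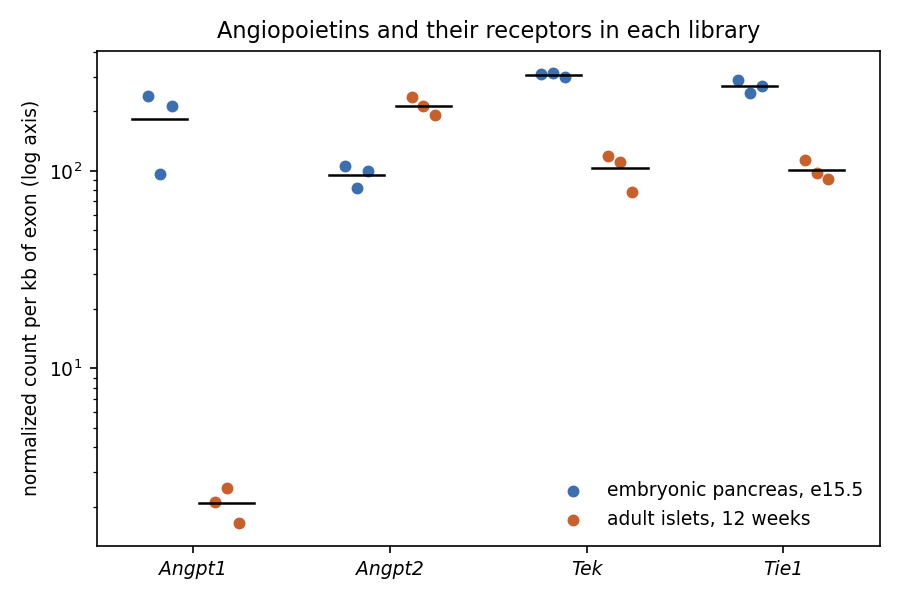
Normalized counts per kb of exon (log axis) of Angpt1, Angpt2 and the receptors Tek and Tie1 in each library, with black bars for the group means. Angpt1 lies at or above 96.0 in the embryonic libraries and at or below 2.48 in the islets, Angpt2 is higher in the islets, and both receptors are lower there.

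Flt4, the receptor for VEGF-C and VEGF-D, is a marker of lymphatic endothelium that fenestrated blood capillaries can also carry. The gene is on the plus strand of chromosome 11 (chr11:49609263-49652739). It held 986, 970 and 1250 normalized counts at e15.5, against 1101, 1019 and 835 in the islets. The groups overlapped, with means of 1069 ± 157 and 985 ± 136, and the difference did not pass the test (log2 fold change −0.12 with SE 0.14 and a 95% interval of −0.44 to 0.20, adjusted p = 0.47 by limma-trend). A change of more than 1.35-fold downward or 1.15-fold upward lies outside that interval, which holds for the main scaling only.

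Most of the lymphatic markers tested were lower in the islets. Of 7 such genes, 6 were tested, of which 5 fell and 1 was not called, with a median log2 fold change of −1.61, and their summed level was 8744 to 10739 in the embryonic libraries and 4313 to 4605 in the islets. Mmrn1, a secreted multimerin of lymphatic endothelium, went from 1704 ± 206 to 2.14 ± 1.15, which is 6 islet reads (log2 fold change −9.15). The hyaluronan receptor gene Lyve1 fell from 1540 ± 178 to 750 ± 192 and Pdpn, podoplanin, from 386 ± 22.8 to 95.8 ± 51.6 (log2 fold changes −1.07 and −2.16). Ccl21a, a chemokine of lymphatic vessels, had a mean of 13.96 ± 12.6 at e15.5 and 0 reads in the islets, and was not tested. Prox1, the lymphatic master regulator that pancreatic epithelium also expresses, went from 4347 ± 365 to 3274 ± 55.0 (log2 fold change −0.41). It was the most abundant gene of the list in both groups, so the summed level rests in good part on Prox1, in the islets above all. Relative to Flt4, the Vegfc level per kb went from 1.38, 1.27 and 1.32 of the Flt4 level to 0.235, 0.281 and 0.454 of it (4.26-fold lower, two-sided exact permutation p = 0.1).

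**Figure D4:**
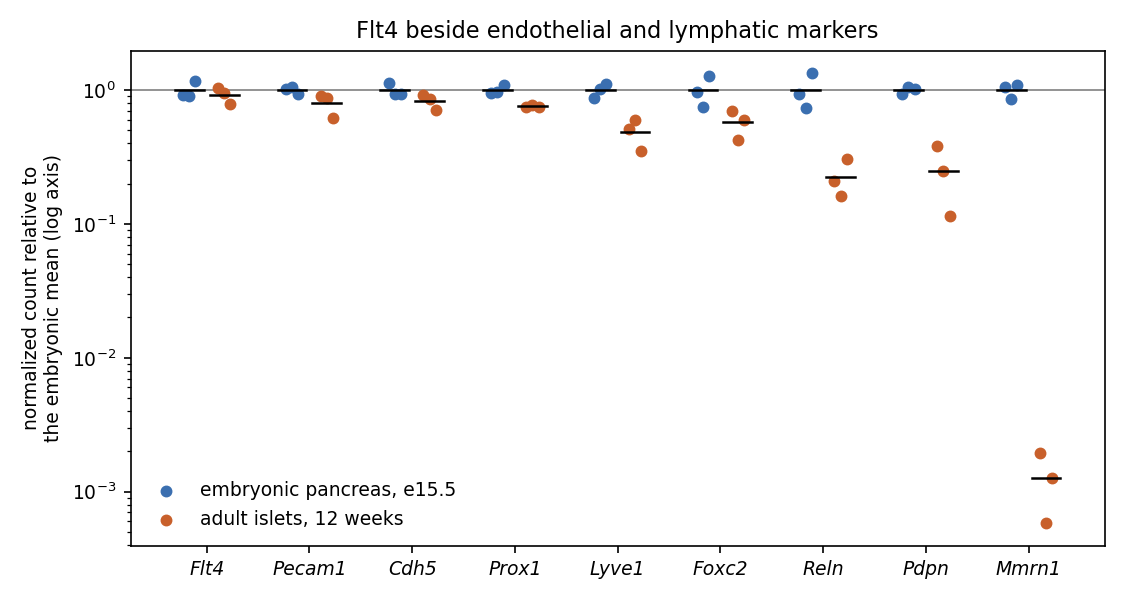
Normalized counts of Flt4, the endothelial genes Pecam1 and Cdh5 and 6 lymphatic markers in each library, divided by the embryonic mean of the gene (log axis), with black bars for the group means. Flt4 stays around 1 in both groups, while Mmrn1, with 6 islet reads, lies furthest below.

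Endothelial genes as a whole were measured beside Flt4 and Angpt2. Of 14 pan-endothelial markers, 7 fell, 0 rose and 7 were not called, with a median log2 fold change of −0.37, and none was at 0. Their summed level was 17391 to 18322 in the embryonic libraries and 9542 to 12404 in the islets, with the steepest falls in Vwf and Cldn5 (log2 fold changes −2.75 and −2.61). Cd34, the most abundant gene of the list at e15.5, fell from 3784 ± 291 to 673 ± 57.6 (log2 fold change −2.49). The fall of the sum thus rests in good part on Cd34 and is not shared by all genes of the list. Relative to that list per kb, Angpt2 was 3.46-fold higher in the islets and Flt4 1.42-fold higher (log2 differences 1.79 and 0.51, two-sided exact permutation p = 0.1 for each). Against Pecam1 and Cdh5 alone, the log2 differences were 1.47 for Angpt2 and 0.19 for Flt4. These ratios were chosen after the values were seen, and the value for Flt4 rests on which markers stand for endothelium. Of 6 genes known to respond to VEGF in endothelium, 3 rose, 2 fell and 1 was not called. Esm1, endocan, rose from 128 ± 44.6 to 2977 ± 301 (log2 fold change 4.58), whereas Apln, the peptide apelin, fell from 906 ± 253 to 334 ± 30.4 (log2 fold change −1.41).

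Hypoxia genes, whose pathway is known to raise Vegfa transcription, moved in both directions beside it. Of 9 genes that sense oxygen, 2 rose, 3 fell and 4 were not called. Hif3a, a HIF subunit with inhibitory forms, and Egln3, a prolyl hydroxylase, had the steepest falls (log2 fold changes −7.96 and −1.29), and Egln1, the main prolyl hydroxylase, rose (0.72). Of 10 known HIF targets, 6 rose, 2 fell and 2 were not called, with a median log2 fold change of 0.72. Bnip3 and Ndrg1 rose (log2 fold changes 4.10 and 2.28) and Car9, carbonic anhydrase 9, fell (−4.35). The summed level of these targets was 21468 to 31692 normalized counts in the embryonic libraries and 37648 to 61487 in the islets. It rests in good part on Pgk1 (4284 ± 1284 to 16735 ± 4861) and P4ha1 (2883 ± 312 to 10716 ± 2884), while Ldha fell from 11548 ± 2485 to 3073 ± 1550. The lowest islet sum was in the third library, where Vegfa was highest of the islets at 15476. The highest embryonic sum was in the second library, where Vegfa was highest of the embryonic libraries at 2147. The part of this pathway in the rise of Vegfa was not tested.

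**Figure D5:**
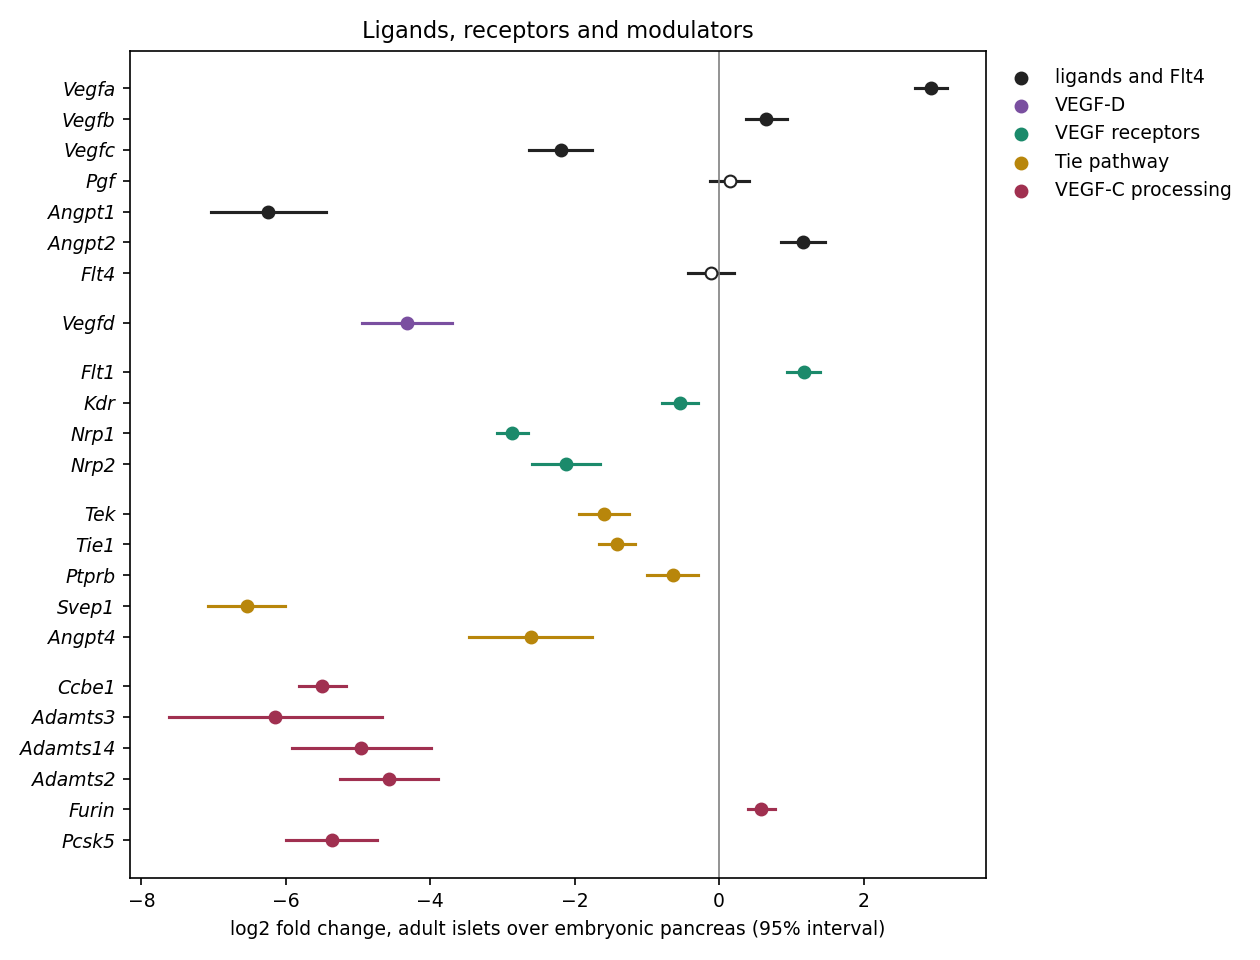
Log2 fold changes of adult islets over embryonic pancreas (horizontal axis, bars are 95% intervals from limma-trend) for the 7 genes, Vegfd, the VEGF receptors, the Tie pathway and VEGF-C processing. Filled points passed the test and the open points, Pgf and Flt4, did not. Vegfa, Vegfb, Angpt2, Flt1 and Furin are the filled points to the right of 0.

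The order of the levels per kb of exon differed between the tissues. In the embryonic pancreas Vegfa led with 447 ± 47.2 normalized counts per kb, without overlap with the next. Angpt1, Vegfb, Vegfc, Flt4 and Pgf followed at means of 183, 172, 172, 130 and 123, each overlapping its neighbour, and Angpt2 was lowest at 95.7 ± 12.0. In the islets Vegfa stood at 3414 ± 171, ahead of Vegfb (271 ± 21.6) and Angpt2 (214 ± 22.96). Pgf and Flt4 overlapped at 136 ± 10.2 and 120 ± 16.5, and Vegfc and Angpt1 came last at 37.4 ± 7.64 and 2.08 ± 0.415.

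The direction of the 5 called genes held under each scaling tried. When the 20 most abundant genes of either group were kept out of the scaling, the median log2 fold change over the genes tested moved from −0.03 to −0.26. Under this scaling the log2 fold changes were 2.70 for Vegfa, 0.42 for Vegfb, 0.92 for Angpt2, −2.43 for Vegfc and −6.47 for Angpt1. Relative to that median, Vegfa stood at 2.96, Vegfb at 0.68, Angpt2 at 1.19, Vegfc at −2.17 and Angpt1 at −6.21. Pgf and Flt4, which were not called, were at −0.0901 and −0.35 under this scaling, so the sign of Pgf turned. Relative to that median they stood at 0.17 and −0.09. Scaling moves all genes of a library alike, so values relative to the median stay near those of the main fit by design.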

How the data were processed

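Per the labels' protocols, total RNA (RNeasy Micro) went into TruSeq RNA libraries. The submitters' processing notes name DESeq2, Cufflinks 1.2.1, TopHat 1.3.2 and CASAVA 1.8.2, with build mm10. No read counter or annotation is named there. In the 1 table that the authors deposited, each of 6 library columns gives a normalized signal, which per the file headers is the count of a gene over the size factor of that library. It also carries the authors' mean signal, log2 fold change, linear fold (a ratio), standard error, p-value with and without adjustment, and test score. The 5 rows of unassigned reads were left out.

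Groups were compared with limma-trend (R 4.3.3, limma 3.58.1), run on log2(value + 1) and keeping genes that reached 10 normalized counts in 3 or more libraries. All values (100%) were whole multiples of 1 step per library within 0.01 reads. In the second islet library the step, 0.992, itself lies within 0.01 of 1. Larger values there, such as 2.97 for Angpt4 and 5.95 for Adamts3, were multiples of that step and not whole numbers. On the recovered reads edgeR 4.0.16 (quasi-likelihood) called 16072 genes and DESeq2 1.42.0 called 15413, beside 15770 by limma-trend. Lengths are the summed exons of GENCODE M21 (GRCm38), matched by name for 97.8% of genes. Ratios within libraries were tested by exact permutation (SciPy 1.17.1). Alternatives were 3 other scalings, a pseudocount of 0.1 or 5, a minimum of 0 or 50, the 2 count models, a replicate block and leaving out each library.

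The 7 genes and all lists were chosen with earlier results of these data known. Named genes were the 7, any gene of lists of up to 7, and of longer lists 3 called genes, the 2 that changed most in the direction of the majority and 1 against it. For each of the 7, the 2 genes with the smallest root mean square difference of centred log2(value + 1) profiles were also named, except 2 genes not reported here. Hif1a, Cd34, the HIF targets Pgk1, P4ha1 and Ldha, and the ratio denominators Pecam1 and Cdh5 were chosen after their values were seen. The mural and mesenchyme genes named for the second embryonic library, Kcnj8 among them, were also named outside the rule for longer lists, with their values seen.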

Additional observations from a re-analysis of the deposited data

How the results depend on the processing

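Under all 16 alternatives to the fit, 5 of the 7 genes were called, and Vegfa, Vegfb, Vegfc, Angpt1 and Angpt2 kept their direction and their call. Their log2 fold changes ranged over 2.66 to 3.05, 0.42 to 0.80, −2.43 to −1.95, −6.65 to −5.82 and 0.92 to 1.27. Pgf and Flt4 were called under none of the 16 (adjusted p 0.0535 to 0.575 and 0.0800 to 0.999999). Pgf turned to −0.0901 with libraries scaled without the 20 most abundant genes. Flt4 was lowest under that scaling too, at −0.35 (SE 0.16, adjusted p = 0.080 by limma-trend). With 1 library left out at a time, Flt4 ranged over −0.20 to 1.5e-07, the latter without the third embryonic library. The number of genes called ran from 12641 with a minimum of 50 to 18733 with no filter. The difference in the Vegfa share of the ligands was 34.5 percentage points without division by length, because Vegfa has longer exons than the other ligands. The remaining differences between groups in ratios within libraries moved by less than 1 SD, except those to endothelial markers when Pecam1 and Cdh5 alone were used, given above. With the replicate number as a block, 15612 genes and 5 of the 7 were called. Libraries with the same number did not deviate together (r of 0.04, 0.08 and 0.01), and not every library correlated best with its own number, so the numbers were not taken as pairs. In the authors' deposited table the same 5 genes pass an adjusted p of 0.05, with log2 fold changes of 2.93, 0.65, −2.20, −6.45 and 1.16. Depth limits mainly Angpt1, with 31 islet reads.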

Other observations

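The relatives of these ligands divided between the tissues. Of 6 PDGF ligand and receptor genes, whose ligands share the cystine knot fold with VEGF, 2 rose and 4 fell by limma-trend. Pdgfa and Pdgfb, the ligands that recruit mesenchyme and pericytes, rose from 957 ± 139 to 1631 ± 105 and from 308 ± 19.2 to 462 ± 47.8 normalized counts (log2 fold changes 0.78 and 0.58). Their receptors Pdgfra and Pdgfrb fell from 5592 ± 206 to 49.5 ± 35.1 and from 3354 ± 108 to 553 ± 89.1 (log2 fold changes −7.16 and −2.61). Pdgfc and Pdgfd fell with log2 fold changes of −5.09 and −2.31.

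Among 7 angiopoietin-like genes, which resemble angiopoietins but do not bind Tek, 2 rose, 4 fell and 1 was not called. Angptl6 rose in every islet library, from 35.5, 31.3 and 29.4 to 826, 855 and 1106 normalized counts (log2 fold change 4.80 with SE 0.17, adjusted p = 4.7e-08 by limma-trend), and Angptl4, an inhibitor of lipoprotein lipase, fell from 531 ± 3.63 to 41.6 ± 16.5 (log2 fold change −3.73).

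Hif1a, the oxygen-regulated subunit of HIF, was at 6846 ± 819 and 7072 ± 181 normalized counts in the embryonic pancreas and the islets (log2 fold change 0.05, not called). Over the 6 libraries, the profile nearest to that of Vegfa was that of Gnao1, a G protein subunit, with a root mean square difference of 0.030 on the log2 scale. The nearest to Vegfb were Pdrg1 and Vma21 (0.016 and 0.028), to Vegfc Dzip1 and Fras1 (0.059 and 0.072) and to Pgf Spint2 (0.028). Angpt2 was nearest to Sntg2 and Prr7 (0.060 and 0.068) and Flt4 to Gm49085 and Dot1l (0.078 and 0.085). Angpt1 had no profile as near: the closest, Lhfpl1 and Gm43022, differed by 0.17 and 0.21 and had 0 reads in the islets. The 6 libraries fall into 2 groups, and this measure weights the difference between groups most where that difference is large.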
